A study of Rattus norvegicus with 12 samples.

Results

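The genes that encode the respiratory chain and the ATP synthase were compared between the left ventricles of exercised and sedentary rats. Members were all probe sets annotated with a single gene symbol that begins with Nduf, Uqcr, Cox4, Cox5, Cox6, Cox7, Cox8 or Atp5, or that is Sdha, Sdhb, Sdhc, Sdhd, Cyc1 or Cycs. The rule used names only, not measured values. It found 55 of the 4736 gene symbols on the array, read by 101 of its 8740 probe sets, and 95 of these, from 54 genes, passed a filter on dim probe sets. Of the 55 symbols, 27 had 1 probe set and 28 had several.

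Each sample of total RNA from the left ventricle, the main pumping chamber, had 1 single-channel array. There were 6 exercised samples, taken after 7 weeks of treadmill running (numbered 1, 4, 5, 7, 8 and 9), and 6 sedentary samples (13, 16, 17, 21, 23 and 24). The labels give no age, sex, strain, running schedule or time of sampling. Nor do they say whether the numbers stand for different animals, so that the p-values cover the scatter of these samples alone, part of which may be technical. The 11 cardiomyocyte markers on the array all passed the filter, with summed intensities of 393580 to 416015 in exercised and 375247 to 429887 in sedentary arrays. All 4 atrial and all 5 adipocyte markers on the array passed it too, so passing the filter does not identify the tissue.

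The respiratory chain sits in the inner membrane of the mitochondrion. Complex I takes electrons from NADH and complex II takes them from succinate. Complex III passes them to cytochrome c, and complex IV hands them to oxygen. Complexes I, III and IV pump protons, and the ATP synthase, also called complex V, uses the returning protons to make ATP. Heart muscle, which contracts without pause, is among the tissues richest in these complexes, and most of their subunits are encoded in the nucleus.

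None of the 95 measured members passed an adjusted p of 0.05 (limma, Benjamini-Hochberg over all 6555 probe sets kept), against 21 of all 6555 (0.320%). At an unadjusted p under 0.05 there were 6 members (6.32%; 5 higher and 1 lower in exercised samples), and 16.2% of all probe sets reached it. The ranges of both groups overlapped for all 95 members, whereas 2.07% of all probe sets had ranges that did not overlap. The smallest adjusted p of a member was 0.124 (Ndufc2). By sign alone 64 members (67.4%) were higher in exercised samples and 31 lower, beside 51.4% higher among all probe sets. Differences are exercised minus sedentary throughout, in log2(intensity + 363). Their median was 0.03 for the members and 0.00 for all probe sets. That sign count fell to 45 after quantile normalization, and stayed at 64 with the arrays centred on their median.

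The intervals of the fit show how precisely each difference was measured, with each probe set taken singly. The 95% interval lay within 0.25 log2 of 0 (1.19-fold) for 70 of the 95 members (73.7%) and for 71.5% of all probe sets. The lowest limit of any of the 95 intervals was 0.748-fold and the highest 1.34-fold. The intervals were not adjusted for their number, so these limits do not bound all 95 differences jointly. They are folds of the intensity plus the added constant, which understates differences of dim probe sets. The intervals also leave out the choice of scaling, and quantile normalization moved the differences. All values are relative intensities, since an unknown global scaling would hide a change shared by all RNA. In whole tissue, fewer cells of a type and less RNA per cell cannot be told apart.

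**Figure D1:**
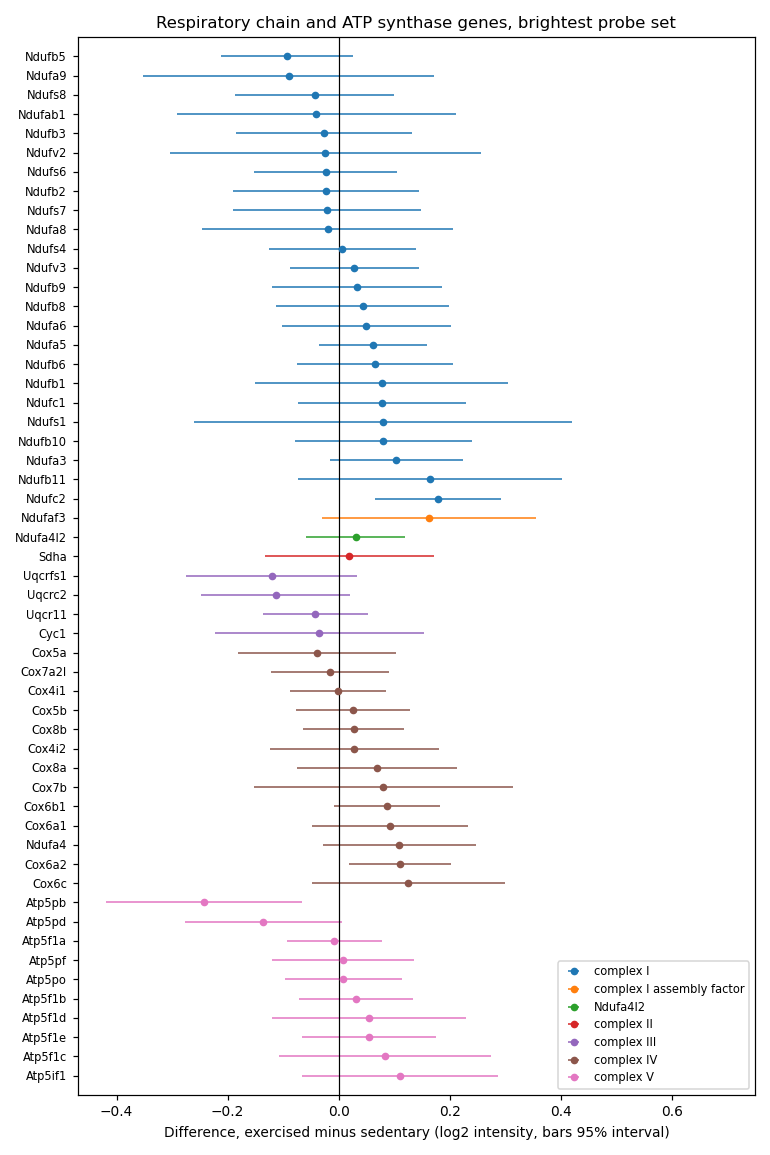
Difference between exercised and sedentary samples for the 54 measured genes, each by its brightest probe set, in log2 intensity with the 95% interval of the fit. Points are coloured by complex. The 4 complex III genes lie left of 0 and 10 of the 13 complex IV genes lie right of it (8 under quantile normalization), and the interval excludes 0 for Ndufc2, Cox6a2 and Atp5pb only.

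The promoters give the sequence setting of these genes. Of the 54 measured genes, 46 matched a RefSeq promoter table (assembly GRCr8) that spans 250 bases before to 50 after the gene start. Motifs of 5 factors linked to mitochondrial or muscle genes were searched on both strands as exact letters, and a match describes the letters only. The NRF-1 letters CGCNTGCGC occurred in 9 of the 46 (19.6%) and in 6.26% of all 27457 promoters of the table. The YY1 letters AAGATGGC occurred in 11 (23.9%), beside 3.44% of all. The ETS letters CCGGAAGT stood in 4 (8.70%) and in 4.01% of all, the MEF2 letters CTAAAAATA in 1 (2.17%) and in 0.517%, and the ERR letters TCAAGGTCA in none, beside 0.412%. At least 1 of the 5 was found in 21 promoters (45.7%), beside 13.3% of all.

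Below are the 150 bases that end at the gene start for 5 members, 5′ to 3′ on the strand of the gene, with motif matches in capitals. Sdha (chr1:30764403-30764552, plus strand) and Atp5po (chr11:44657484-44657633, minus strand) are shown for their NRF-1 matches, which overlap each other in Atp5po. Cox6a2 (chr1:192219717-192219866, minus strand) holds the MEF2 match. Ndufc2 (chr1:161123040-161123189, plus strand) and Atp5pb (chr2:196123738-196123887, minus strand) are the members with the smallest p on either side, and neither holds a match in this stretch.
Sdha: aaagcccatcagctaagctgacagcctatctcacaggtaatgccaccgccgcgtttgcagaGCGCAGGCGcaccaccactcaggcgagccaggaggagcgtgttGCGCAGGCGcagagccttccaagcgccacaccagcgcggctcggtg
Atp5po: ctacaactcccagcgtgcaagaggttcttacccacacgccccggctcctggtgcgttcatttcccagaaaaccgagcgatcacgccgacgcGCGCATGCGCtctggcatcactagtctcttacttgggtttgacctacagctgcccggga
Cox6a2: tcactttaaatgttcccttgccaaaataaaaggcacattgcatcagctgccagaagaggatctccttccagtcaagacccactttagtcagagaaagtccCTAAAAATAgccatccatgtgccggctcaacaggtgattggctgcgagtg
Ndufc2: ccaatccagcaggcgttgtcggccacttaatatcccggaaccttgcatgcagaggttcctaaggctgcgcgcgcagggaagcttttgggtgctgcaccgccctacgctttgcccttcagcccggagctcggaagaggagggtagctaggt
Atp5pb: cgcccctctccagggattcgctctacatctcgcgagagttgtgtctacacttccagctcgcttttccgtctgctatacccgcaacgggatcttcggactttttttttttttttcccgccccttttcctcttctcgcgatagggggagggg

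Complex I, the entry point for electrons from NADH, was measured by 24 genes. By the brightest probe set of each, 14 were higher and 10 lower in exercised samples (median difference 0.03), and under quantile normalization 8 were higher and 16 lower (-0.03). With each array left out in turn the median ran from 0.0072 to 0.053. None passed the test. Ndufc2, a small subunit of the membrane arm, came closest. Its intensity ran from 11311 through a median of 11979 to 12490 in exercised arrays and from 9786 through 10277 to 11845 in sedentary arrays. All 6 exercised values were above the sedentary mean, but sedentary 13, at 11845, lay inside the exercised range. The group means were 11908 ± 393 and 10499 ± 793 (SD, n = 6 each). The difference was 0.18 ± 0.053 (SE) on the log2 scale, or 1.13-fold with an interval of 1.05 to 1.22, and its adjusted p of 0.124 (limma) missed the threshold. Leaving out sedentary 13 brought that adjusted p to 0.0565, the lowest of the 12 fits that left out 1 array. Without sedentary 23 it was 0.254.

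Ndufa3, another small membrane-arm subunit, was second by p within complex I. Its intensity was 10415, 11490 and 12152 (lowest, median, highest) in exercised and 9850, 10539 and 11551 in sedentary arrays. The ranges overlapped over most of their width, and the difference was 0.10 ± 0.056 (adjusted p = 0.374, limma). Ndufb5, also of the membrane arm, followed with the other sign. By its brighter probe set it gave 14165, 15211 and 16925 in exercised and 14924, 16727 and 17368 in sedentary arrays, a difference of -0.09 ± 0.056 (adjusted p = 0.416). Its dimmer probe set gave 0.11 ± 0.108 (adjusted p = 0.618), so the sign of Ndufb5 depended on the probe set read.

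The core of complex I, which carries the flavin and iron-sulfur centres, was covered by 4 genes, of which 1 was higher and 3 lower (median -0.02; -0.09 under quantile normalization). Ndufs1, the largest iron-sulfur subunit, had the widest interval of these 54 genes. It ran from 785 in sedentary 17 to 1928 in exercised 8, a ratio of 2.45 between arrays, and its difference was 0.08 ± 0.159. Ndufv2, a subunit with an iron-sulfur centre, spanned 12216 in exercised 5 to 21487 in sedentary 23, and its difference was -0.02 ± 0.131. Ndufs7 and Ndufs8, which hold the last iron-sulfur centres before ubiquinone, differed by -0.02 ± 0.079 and -0.04 ± 0.067. Ndufs8 had 4 probe sets that did not share a sign. The brightest gave 10303, 11659 and 13288 in exercised and 11279, 11922 and 13147 in sedentary arrays, while 1 of the dimmer ones gave 0.13 ± 0.104. None of the 4 passed (adjusted p = 0.522 to 0.754, limma).

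Among the 6 accessory subunits of the matrix arm, 4 were higher and 2 lower (median 0.02), a split that turned to 2 and 4 under quantile normalization (-0.04). Their differences ran from -0.09 (Ndufa9) through -0.02 (Ndufs6), 0.01 (Ndufs4), 0.03 (Ndufv3) and 0.05 (Ndufa6) to 0.06 (Ndufa5). Ndufv3 gave 16868, 17976 and 20759 in exercised and 17698, 18124 and 18924 in sedentary arrays by its bright probe set, so the sedentary values sat inside the exercised range. Its dim probe set, at 380 to 630, gave -0.01. Ndufs4, a subunit whose loss causes mitochondrial disease, was measured by a bright and a dim probe set at 0.01 ± 0.062 and 0.02 ± 0.078, and a fainter probe set did not pass the filter. Ndufab1, the mitochondrial acyl carrier protein that also serves as a subunit of the complex, gave 14787, 20857 and 24482 in exercised and 16623, 21127 and 24251 in sedentary arrays. Both groups covered nearly the same range, and its 3 probe sets gave -0.04, 0.02 and -0.03.

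The 13 accessory subunits of the membrane arm, where protons are pumped, were higher by sign in 9 and lower in 4 (median 0.07), but higher in 5 and lower in 8 under quantile normalization. Next to Ndufc2 the largest was Ndufb11 at 0.17 ± 0.111, with a second probe set at 0.08. Ndufb10, Ndufc1, Ndufb1 and Ndufb6 lay between 0.07 and 0.08, and Ndufb8 and Ndufb9 at 0.04 and 0.03. Ndufa8, Ndufb2 and Ndufb3 lay between -0.03 and -0.02. Ndufb8 had 4 probe sets. By the brightest it gave 21686, 25411 and 28341 in exercised and 20688, 24941 and 26768 in sedentary arrays, and the second gave 0.05. Its 2 dim probe sets both gave -0.08, so bright and dim probe sets of this gene differed in sign, and none passed (adjusted p = 0.596 to 0.776, limma).

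Ndufaf3, which is not a subunit but helps to assemble complex I, was higher by sign on both measured probe sets. The brighter gave 2112, 2434 and 2897 in exercised and 1664, 2259 and 2485 in sedentary arrays, a difference of 0.16 ± 0.090 (adjusted p = 0.387, limma). The dimmer gave 0.16 ± 0.067 with an unadjusted p of 0.0348 and an adjusted p of 0.262. Sedentary 17 had the lowest value on both, and without it the brighter probe set gave 0.10. Ndufa4l2, a paralogue of Ndufa4 known as a target of hypoxia signalling, was read by 4 measured probe sets of the kind whose probes are shared across a family of similar sequences, so its signal may not be its own. They gave 0.03, -0.03, 0.03 and -0.09, and the brightest gave 1806, 1948 and 2010 in exercised and 1737, 1898 and 1965 in sedentary arrays.

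Complex II was represented by Sdha alone, the flavoprotein that oxidises succinate and so belongs to the citric acid cycle as well. Its intensity was 10819, 11961 and 13645 in exercised and 11122, 11613 and 13437 in sedentary arrays. The groups covered the same range, and the difference was 0.02 ± 0.071 (adjusted p = 0.906, limma), with an interval of 0.912-fold to 1.13-fold. Its sign turned under quantile normalization, array weights and the removal of single arrays.

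Complex III was the only complex with several genes in which all had the same sign. Its 4 measured genes were lower in exercised samples by their brightest probe sets, with a median of -0.08 (-0.14 under quantile normalization, again all 4 lower), and none passed. Uqcrc2, a core protein without an electron carrier, gave 13372, 15382 and 17506 in exercised and 15332, 16987 and 17818 in sedentary arrays. Only 1 exercised value exceeded the sedentary mean, yet the ranges overlapped, and the difference was -0.11 ± 0.062 (adjusted p = 0.383, limma). Uqcrfs1, the Rieske iron-sulfur protein, gave 16777, 17491 and 21194 in exercised and 17552, 20545 and 21700 in sedentary arrays. Its 3 probe sets ran from -0.12 ± 0.072 on the brightest through -0.06 to 0.01 on the dimmest (adjusted p = 0.415 to 0.959). Cyc1, which carries the haem of cytochrome c1, differed by -0.03 ± 0.088.

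Uqcr11, a small subunit of complex III, had 2 probe sets of nearly equal brightness that disagreed in sign. One gave 14656, 15228 and 16393 in exercised and 15074, 16010 and 16430 in sedentary arrays (-0.04 ± 0.044), and the other gave 14428, 15234 and 17898 against 14410, 15136 and 15344 (0.06 ± 0.056). Of the 7 probe sets of complex III, 5 were lower and 2 higher, so the uniform sign holds for the brightest probe sets only. The lower median kept its sign when each array was left out in turn (-0.11 to -0.06). The uniform sign did not, since Cyc1 turned to 0.029 without exercised 5. For cytochrome c itself, the mobile carrier between complexes III and IV, the only matching probe set named several genes and was left out by the rule.

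**Figure D2:**
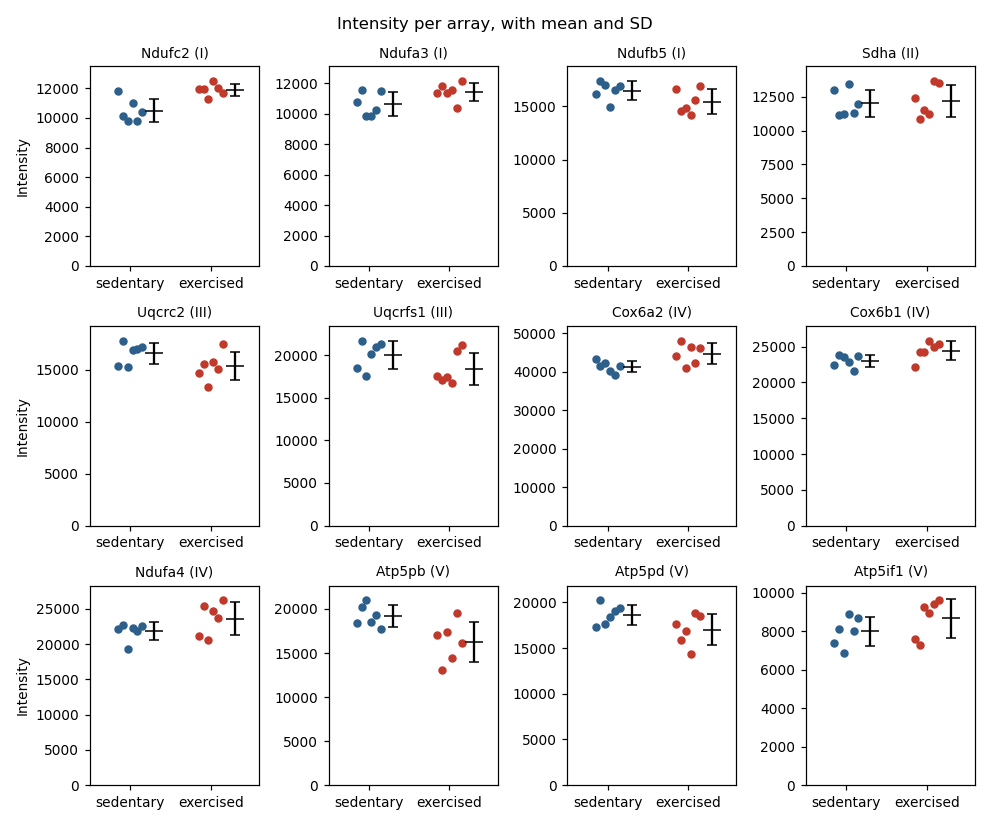
Intensity on each array (points, axes from 0) for 12 genes, the 3 with the smallest unadjusted p in complexes I, IV and V, 2 of complex III and Sdha, with the mean and SD of 6 arrays beside each group. In every panel the ranges of the groups overlap, and all 6 exercised points of Ndufc2 lie above its sedentary mean.

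Complex IV, cytochrome c oxidase, was measured by 13 genes, counting Ndufa4, whose product is now placed there. Of these, by their brightest probe sets, 10 were higher and 3 lower in exercised samples, with a median of 0.07, and none passed the test. Under quantile normalization 8 were higher and 5 lower, with a median of 0.02, and with 1 array left out the median ran from 0.040 to 0.098. Over all 26 probe sets of complex IV, several of which read the same gene, 23 were higher and 3 lower, with a smaller median of 0.04. Cox6a2, the heart and muscle form of subunit VIa, gave 41079, 45120 and 48063 in exercised and 39147, 41595 and 43205 in sedentary arrays by its brightest probe set. Of the exercised values, 5 were above the sedentary mean. The means were 44717 ± 2678 and 41353 ± 1473 (SD, n = 6 each) and the difference 0.11 ± 0.043, with an adjusted p of 0.223 (limma). Its other 2 probe sets gave 0.01 and 0.03, so the difference was not shared between probe sets.

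Cox6b1, a subunit that faces the intermembrane space, gave 22148, 24613 and 25828 in exercised and 21610, 23156 and 23863 in sedentary arrays. Both of its probe sets agreed in size, at 0.09 ± 0.044 and 0.08 ± 0.047 (adjusted p = 0.353 and 0.416, limma). Ndufa4 gave 20613, 24222 and 26216 in exercised and 19271, 22209 and 22726 in sedentary arrays. Of the exercised values, 4 lay above every sedentary value and 2 among them, and the difference was 0.11 ± 0.065 (adjusted p = 0.413). Of the remaining nuclear subunits, Cox6c stood at 0.13 ± 0.081, Cox7b at 0.08 ± 0.109, Cox5b at 0.03 ± 0.048 and Cox5a at -0.04 ± 0.066. Cox5a was read by a dim probe set (713 to 1085), and a further probe set that names Cox5a with another gene was not used. Cox7a2l, which joins complexes III and IV into supercomplexes, gave 5943, 6380 and 6919 in exercised and 6045, 6607 and 6724 in sedentary arrays. Its brighter probe set stood at -0.02 ± 0.050 and the dimmer at 0.08 ± 0.054.

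Several complex IV subunits exist in more than 1 form, each with its own tissues, which makes the balance between forms a further readout. For 3 such pairs both forms were measured, and the difference of their log2 values within each array was compared by an exact permutation test over samples (two-sided, smallest possible p 0.00216). Because probes differ in brightness, only the comparison between groups has meaning. Cox6a2 over Cox6a1 was 1.71 ± 0.069 in exercised and 1.70 ± 0.172 in sedentary arrays (SD, n = 6 each; exact permutation p = 0.838). The difference of 0.02 had an interval of -0.152 to 0.18. Cox8b over Cox8a, of subunit VIII, was 1.22 ± 0.164 and 1.26 ± 0.174, a difference of -0.04 with an interval of -0.264 to 0.172 (exact permutation p = 0.671). Cox4i1 over Cox4i2, the common and the lung and hypoxia form of subunit IV, was 2.18 ± 0.188 and 2.21 ± 0.118, a difference of -0.03 with an interval of -0.222 to 0.168 (exact permutation p = 0.738). After Benjamini-Hochberg adjustment over the 3 pairs each p was 0.838.

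**Figure D3:**
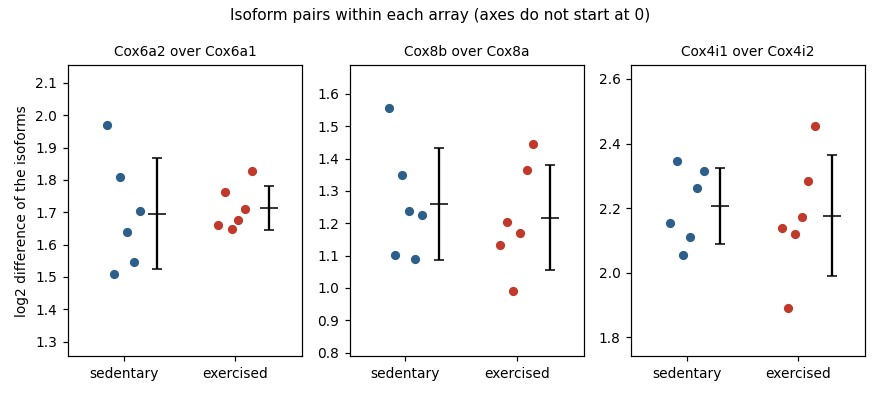
Log2 difference between 2 forms of a complex IV subunit on each array (points), with mean and SD of 6 arrays per group, for Cox6a2 over Cox6a1, Cox8b over Cox8a and Cox4i1 over Cox4i2. The axes do not start at 0, and the exercised points lie among the sedentary points in the first panel and overlap them in the others.

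Taken singly, no form of these pairs passed the test. Cox6a2, described above, was higher by 0.11 on its brightest probe set, with an interval of 0.019 to 0.202 (adjusted p = 0.223, limma). Its other probe sets gave 0.01 and 0.03. Cox6a1 was higher by sign too, so the level ratio of this pair does not show that each form was level. Cox6a1 was 12711, 13269 and 14311 in exercised and 10559, 12593 and 14379 in sedentary arrays (0.09 ± 0.065; adjusted p = 0.492, limma). All 6 exercised values were above the sedentary mean, and sedentary 17 was the lowest array. Cox8b was 34692, 38898 and 40642 in exercised and 35762, 37899 and 39534 in sedentary arrays (0.03 ± 0.042). Cox8a was 14705, 16838 and 17314 in exercised and 13214, 15844 and 17223 in sedentary arrays (0.07 ± 0.067), and its 4 probe sets ran from 0.01 to 0.16. Cox4i1 was 41468, 44810 and 47563 in exercised and 42618, 45334 and 46912 in sedentary arrays. The groups were level on this probe set, with a fold of 0.999 and an interval of 0.941 to 1.06, and its other probe sets gave 0.04 and 0.02. Cox4i2 was 8299, 9843 and 10918 in exercised and 8771, 9440 and 10264 in sedentary arrays (0.03 ± 0.071).

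The ATP synthase was measured by 10 genes, 7 higher and 3 lower in exercised samples (median 0.02; 5 and 5 under quantile normalization), and none passed. The median ran from -0.0041, without sedentary 23, to 0.049 when 1 array was left out. Its catalytic head and central stalk were covered by 5 genes, 4 of them higher. Atp5f1a and Atp5f1b, which build the ring where ATP is made, stood at -0.01 ± 0.040 and 0.03 ± 0.048. These are among the tightest intervals of the set, 0.937-fold to 1.06-fold and 0.952-fold to 1.10-fold. The central stalk subunits Atp5f1c, Atp5f1d and Atp5f1e stood at 0.08, 0.05 and 0.05, and without sedentary 23 at 0.017, -0.0088 and 0.018. The dimmer probe set of Atp5f1e gave 24938, 27335 and 29997 in exercised and 21582, 24929 and 27663 in sedentary arrays, a difference of 0.14 ± 0.061 with an unadjusted p of 0.0395 and an adjusted p of 0.276 (limma). Sedentary 23 held the lowest value on both probe sets of Atp5f1e.

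The peripheral stalk, which holds the head still while the central stalk turns, was split, with 2 genes higher and 2 lower (1 and 3 under quantile normalization). Atp5pb, its main strut, was the only member lower in exercised samples at an unadjusted p under 0.05. It gave 13082, 16571 and 19564 in exercised and 17680, 18968 and 20981 in sedentary arrays. In exercised arrays 1 value lay above the sedentary mean, and 5 of the 6 lay under the lowest sedentary value. The means were 16279 ± 2289 and 19203 ± 1239 (SD, n = 6 each), and the difference was -0.24 ± 0.083, or 0.845-fold with an interval of 0.748 to 0.955 (adjusted p = 0.169, limma). Atp5pb had 1 probe set, so a second reading could not be made.

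Atp5pd, a smaller part of the same stalk, gave 14335, 17229 and 18852 in exercised and 17315, 18692 and 20224 in sedentary arrays. The groups overlapped from 17315 to 18852, and the difference was -0.14 ± 0.066 (adjusted p = 0.330, limma). Atp5po, which ties the stalk to the head and whose promoter is printed above, stood at 0.01 ± 0.049, and its second probe set at 0.07 ± 0.054. Atp5pf, also of the stalk, gave 14730, 15543 and 16594 in exercised and 13842, 15461 and 17652 in sedentary arrays. Its brighter probe set stood at 0.01 ± 0.060 and the dimmer at -0.08 ± 0.069, so again the sign differed between probe sets.

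Atp5if1, the inhibitor that stops the ATP synthase from running backwards, was read by 3 measured probe sets whose probes are shared across similar sequences. The brightest gave 7267, 9104 and 9611 in exercised and 6879, 8051 and 8925 in sedentary arrays (0.11 ± 0.082; adjusted p = 0.513, limma). The second gave 5822, 6651 and 7068 against 5001, 5828 and 6215 (0.16 ± 0.065; unadjusted p = 0.0275, adjusted p = 0.243), with all 6 exercised values above the sedentary mean. The third, near the filter, gave -0.05 ± 0.079. The ring subunits Atp5mc1 and Atp5mc2 and the subunits Cox7a2, Ndufb4 and Ndufs5 shared their probe sets with other genes and were not analysed here.

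Part of the variation was shared between genes from array to array, and it did not follow the groups. Over the 54 genes, centred but not scaled, the first principal component held 38.5% of the variance across the 12 arrays. Its highest scores were 1.09 in exercised 9, 0.62 in exercised 7 and 0.49 in sedentary 24, and its lowest were -1.10 in sedentary 17, -1.06 in exercised 5 and -0.44 in exercised 1. High and low arrays thus stood in both groups. The mean of the 24 complex I genes, centred per gene, was 0.17 in exercised 9, -0.16 in exercised 5, 0.08 in exercised 7 and -0.11 in sedentary 17. That of the 10 ATP synthase genes was 0.086, -0.0088, -0.054 and 0.068 on the same arrays, so these genes did not share the pattern on all of them. The within-group SD of a member was 0.120 log2 in the median, and that of all probe sets 0.0991. The first component was computed on the same values that it describes, and the more variable genes weighed more in it. Its relation to RNA quality or tissue make-up was not tested. No such component was computed over all probe sets, so whether the pattern is particular to these genes was not tested.

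**Figure D4:**
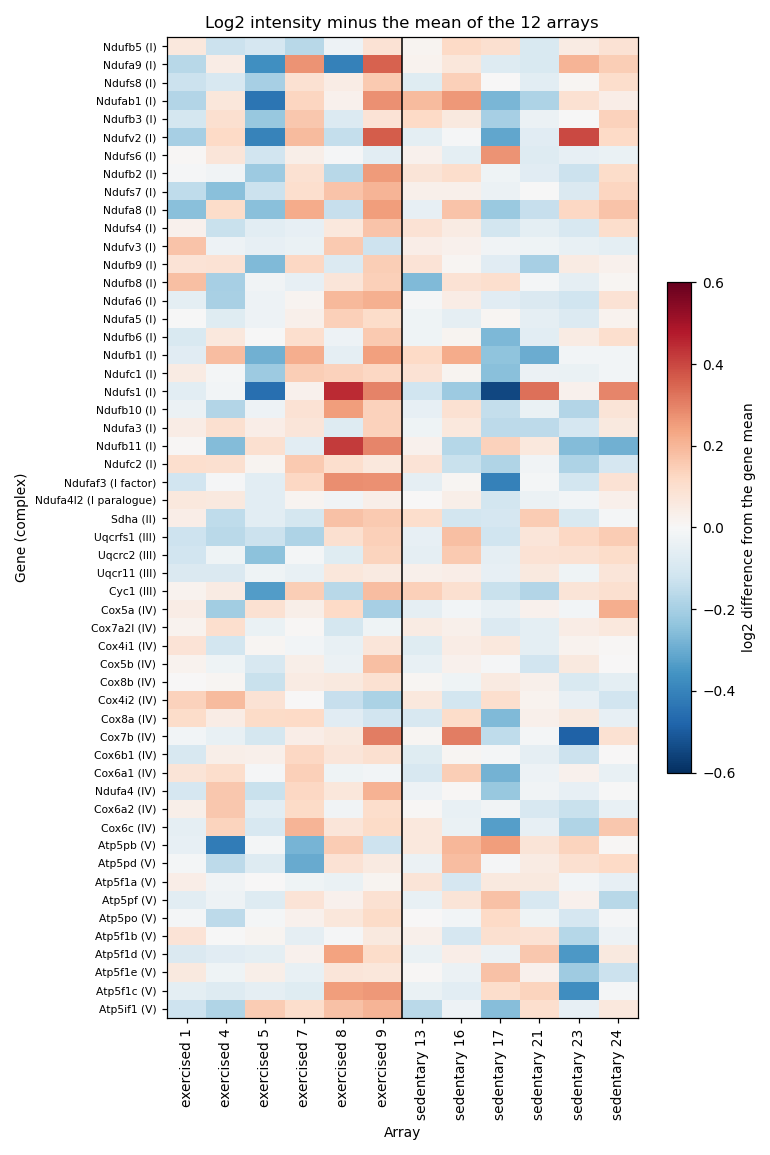
Log2 intensity of the 54 genes (rows, by complex and difference) on the 12 arrays (columns), minus the mean of each gene over the arrays, from blue (lower) to red (higher). Exercised 9 is red and exercised 5 blue over most complex I rows, and sedentary 17 is blue for Ndufs1, Cox6c and Ndufaf3.

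Other genes of oxidative metabolism were read from lists chosen with earlier results of these data known. Calls within them are therefore not independent of those results. Of 14 measured assembly, import and maturation genes, 11 were higher and 3 lower, and 1 passed. That gene was Hspe1, the co-chaperonin that folds proteins in the mitochondrial matrix, at 8186 ± 694 in exercised and 5585 ± 280 in sedentary arrays (SD, n = 6 each). It rose by 0.52 ± 0.060 (adjusted p = 0.00191, limma), a call kept in all 12 fits that left out 1 array. Its dimmer probe set stood at 0.51 ± 0.086 (adjusted p = 0.0302), and lost the call without exercised 5 or sedentary 16, 23 or 24 (adjusted p up to 0.0829). Its partner Hspd1 stood at 0.27 ± 0.057 (adjusted p = 0.0614). Of 20 electron entry and carrier genes, 8 were higher and 12 lower, and 1 passed. Ucp2, an uncoupling protein homologue, was lower at -0.45 ± 0.087 (adjusted p = 0.0404), with a second probe set at -0.19 (adjusted p = 0.151). The call was kept in 3 of the 12 fits that left out 1 array, those without exercised 4, sedentary 13 or sedentary 21, and lost in the others (adjusted p up to 0.104). The second gene of that list by p was Tspo, an outer membrane protein, at 0.33 ± 0.071 (adjusted p = 0.0614).

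Of 10 citric acid cycle genes, 4 were higher and 6 lower, and none passed by its brightest probe set. Idh2, the mitochondrial isocitrate dehydrogenase, stood at -0.18 ± 0.040 (adjusted p = 0.0617, limma), and its dimmer probe set was lower by -0.28 ± 0.053 (adjusted p = 0.0404), a call kept in 3 of 12 such fits, without exercised 9, sedentary 13 or sedentary 17, and lost in the others (up to 0.104). Pdha1, of the pyruvate dehydrogenase complex, stood at -0.23 ± 0.093 (adjusted p = 0.243). Of 34 biogenesis and transcription genes listed, 17 were on the array and 14 were measured, and Ppargc1a, Nrf1 and Tfam were not among these 14. Of the measured genes 6 were higher and 8 lower and none passed. The smallest p belonged to Thra, a thyroid hormone receptor, at -0.21 ± 0.065 and Rxrb, its partner in binding DNA, at -0.14 ± 0.048 (adjusted p = 0.151 and 0.173). The mitochondrial genome encodes the catalytic core of complex IV. Its COX1, COX2 and COX3 stood at 0.03 ± 0.051, -0.09 ± 0.119 and -0.02 ± 0.054, and none passed.

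Markers of other cells, from lists chosen with the same knowledge, were read beside these genes. Fibroblast markers were higher in 7 of 8 (median 0.19; summed intensity 36076 to 55609 in exercised and 31087 to 40074 in sedentary arrays), smooth muscle markers in 4 of 4 (5549 to 7784 and 4621 to 6516), and erythroid markers in 0 of 4 (19899 to 65142 and 62294 to 71206). None of these markers passed alone. Of 6 macrophage and leukocyte markers 2 were higher, and Lyz2 passed at 5421 ± 2104 in exercised and 2401 ± 297 in sedentary arrays (SD, n = 6 each; adjusted p = 0.0404, limma; kept in 4 of 12 such fits, without exercised 1, 4 or 8 or sedentary 13, and otherwise lost, up to 0.104). The sums of that list were 17572 to 23654 and 16180 to 18235. In each of these lists the sums of both groups overlapped. Sums also overlapped for the atrial (2 of 4 higher, 24360 to 43734 and 22481 to 51178) and endothelial markers (1 of 4, 4355 to 4771 and 4478 to 5794). The same held for the adipocyte (2 of 5, 20197 to 24125 and 18232 to 20745) and skeletal muscle markers (3 of 6, 5571 to 6538 and 5600 to 7142). Within the atrial list, Myl7 was 1386 ± 79 in exercised and 2575 ± 2991 in sedentary arrays, and Myl4 was 849 ± 41 and 1165 ± 484 (SD). Pam and Nppa of that list were higher by sign in exercised arrays, and none of its genes passed. The part of all these markers in the values of the respiratory genes was not tested.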

How the data were processed

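Per the labels, total RNA of 12 left ventricle samples (6 exercised, 6 sedentary, assigned by title) was measured on single-channel arrays. The deposited table holds the authors' intensity per probe set on a linear scale, with array medians of 840 to 875. Neither the software nor the background correction and scaling behind it is named in the sources used here. Probe sets were named from the platform annotation. Of the 8740, 7006 had 1 symbol, 308 several and 1426 none listed, and 7 with several symbols, of which 1 fitted the rule, were left out.

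The test was limma 3.58.1 (R 4.3.3; lmFit, eBayes with trend) on log2(intensity + 363), the pseudocount being the 20th percentile of all values. Probe sets with a mean above 434, the 25th percentile of means, were kept, and p-values were adjusted by Benjamini-Hochberg over all 6555 kept, two-sided, at 0.05. This scale understates differences of dim probe sets. The code was tested on simulated data. The brightest probe set stood for a gene in counts by gene. Full values were given for the 3 genes of smallest unadjusted p in each complex, for both genes of an isoform pair and for genes whose probe sets differed in sign. Of related lists, genes past the threshold and the 2 of smallest p were named, and other values given in detail were chosen after they were seen. The members and lists were chosen with earlier results of these data known. Alternatives covered pseudocount, floor, filter, scaling, variance model, array weights, rank-sum test, threshold and arrays left out, including the pairs sedentary 16 and 17 and exercised 4 and 5, which stood apart in those earlier results. Array number limits the precision.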

Additional observations from a re-analysis of the deposited data

Results flagged for a closer look

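Of 190 groups of 6 values (95 probe sets, both groups), 8 held a value whose gap to its nearest neighbour was large for the range of the group by Dixon's criterion, which chance alone meets in about 1 of 20 groups. In sedentary 17, 4 probe sets stood out: Ndufb8 (a dim probe set) at 1242 against 716 to 818 in the other sedentary arrays, Ndufs6 at 23952 against 18731 to 20193, Ndufv3 (its dim probe set) at 630 against 380 to 413, and Ndufa4, low at 19271 against 21870 to 22726. Cox5a in sedentary 24 was 1085 against 836 to 901. The inhibitor Atp5if1 (its dimmest measured probe set) in sedentary 21 was 918 against 526 to 603. Cox7b in exercised 9 was 19527 against 14604 to 16411 in the other exercised arrays. Cox8a in exercised 8, on 1 of its dimmer probe sets, was low at 6615 against 7741 to 8408.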

How the results depend on the processing

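No paired analysis was possible because the groups share no sample numbers. No member passed 0.05 under any alternative, nor 0.10 in the fit reported, nor by the exact rank-sum test (which passed 0 of all probe sets; unadjusted p under 0.05 in 4 members and 989 of all). The smallest adjusted p of a member was under 0.10 in 4 alternatives: 0.0565 without sedentary 13, 0.0853 with array weights and 0.0992 without trend (Ndufc2), and 0.0924 under quantile normalization (Atp5pb). Over all probe sets the count past the threshold varied from 3 (without sedentary 23) to 160 (array weights) around 21, with 50 under a stricter filter, 42 without trend and 32 without filter. The median difference of the members stayed between 0.011 and 0.047 when 1 array was left out, with 53 to 71 members higher. It was -0.0024 under quantile normalization (45 higher), 0.012 with array weights (54) and 0.063 without exercised 4 and 5 (72). With arrays centred on their median this median difference was 0.025 (64 higher). The genes of complexes I, IV and V then split by sign into 14 and 10, 10 and 3, and 7 and 3, as in the fit reported. Of 1296 alternative values of single genes, 93 changed sign, in 30 of 54 genes, none with a difference over 0.081, and 24 genes kept their sign throughout. The sign turned under quantile normalization for Ndufv3 (-0.043), Cox8a (-0.0021), Sdha (-0.059), Ndufb1 (-0.0069), Ndufb6 (-0.010), Ndufs4 (-0.041), Ndufc1 (-0.00018), Ndufb9 (-0.0024), Cox4i2 (-0.049), Atp5f1d (-0.021), Atp5pf (-0.050), Cox8b over Cox8a (0.040), Cox4i1 over Cox4i2 (0.044). The sign turned with array weights for Ndufs1 (-0.066), Ndufs6 (0.033), Sdha (-0.023), Cox4i1 (0.0041), Ndufa6 (-0.0010), Cox7b (-0.0080), Ndufs4 (-0.039), Atp5f1d (-0.0015), Atp5f1a (0.011). The sign turned without sedentary 16 and 17 for Ndufs1 (-0.092), Ndufs6 (0.023), Sdha (-0.029), Cox4i1 (0.025), Ndufs4 (-0.0063). The sign turned without exercised 4 and 5 for Ndufv2 (0.040), Cyc1 (0.029), Ndufs8 (0.019), Ndufb3 (0.00032), Cox4i1 (0.022), Ndufs7 (0.070), Ndufab1 (0.043), Ndufb2 (0.031), Ndufa8 (0.011), Cox4i2 (-0.033), Cox8b over Cox8a (0.018), Cox4i1 over Cox4i2 (0.056). With 1 array left out, the sign turned at least once, over the ranges given, for Ndufv3 (-0.0031 to 0.056), Ndufv2 (-0.10 to 0.053), Ndufs7 (-0.063 to 0.027), Ndufa8 (-0.071 to 0.029), Cox4i1 (-0.019 to 0.020), Cox4i2 (-0.0065 to 0.070), Cox4i1 over Cox4i2 (-0.086 to 0.027), Cyc1 (-0.075 to 0.029), Ndufb3 (-0.069 to 0.016), Ndufab1 (-0.10 to 0.044), Ndufb2 (-0.077 to 0.018), Cox8b over Cox8a (-0.088 to 0.017), Atp5pf (-0.024 to 0.044), Ndufs1 (-0.022 to 0.18), Atp5po (-0.014 to 0.041), Sdha (-0.014 to 0.052), Ndufs4 (-0.027 to 0.034), Cox7a2l (-0.037 to 0.0044), Cox5b (-0.0074 to 0.048), Cox6a2 over Cox6a1 (-0.019 to 0.073), Ndufs6 (-0.042 to 0.028), Atp5f1a (-0.029 to 0.0068), Ndufb8 (-0.0057 to 0.087), Ndufb9 (-0.0030 to 0.089), Cox7b (-0.0089 to 0.15), Atp5f1d (-0.0088 to 0.092), Cox5a (-0.066 to 0.0014).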
